A study of Mus musculus with 32 samples.

Results

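Mbp and Cldn11 are 2 myelin genes of the 9030 genes named on the array, and 3 of its 20794 probes are annotated to them. Probes 16362 and 18452 belong to Mbp and probe 10120 belongs to Cldn11. The probes were found by gene symbol, and the pair of genes was picked with earlier results of these data known. Of all named genes, 2754 had more than 1 probe, Mbp among them. Both Mbp probes carry the annotation of the same RefSeq transcript, and where each lies within it is not given in the sources used here.

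Myelin is the stack of membrane that oligodendrocytes in the brain and optic nerve, and Schwann cells in peripheral nerve, wrap around axons. Mbp encodes myelin basic protein, which holds the inner faces of that membrane together. Cldn11 encodes claudin-11, also called oligodendrocyte-specific protein, which forms the tight junction strands between the layers of central myelin. In the eye, the myelin of oligodendrocytes lies along the optic nerve behind the eyeball, because the axons of ganglion cells inside the mouse retina are not myelinated. Whether RNA in the eye samples came from this myelin or from that of Schwann cells was not tested. Claudin-11 also occurs outside myelin, for example in Sertoli cells of the testis and in the basal cells of the inner ear.

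Every array set labelled cDNA of sighted C3H mice against that of a control pool, on 12 eye, 12 brain and 8 heart arrays. The sighted samples are named only as C3H sighted, and the design text speaks of male animals of a C3H line with the seh mutation. The control RNA came from 6 males labelled C3H.pde6b-, a C3H line without functional Pde6b, the rod phosphodiesterase whose loss ends in retinal degeneration. The same control mice gave the brain pool and the heart pool, and other mice gave the eye pool. Both sides therefore share the C3H background, and the animals' age was not given in the sources used here. No label ties an array to an animal, so p-values measure the spread between these arrays, and the single pool per organ leaves out the spread among control mice.

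Values are given as log2 of the signal from sighted RNA over that from the control pool, so that a negative value means less signal in sighted RNA. The sign rests on the 7 rod genes of the eye arrays, whose array medians of Cy5 over Cy3 ran from 4.71 to 5.42 where sighted RNA carried Cy5, and from -4.37 to -3.82 on the arrays labelled the other way. The direction is therefore likely and not stated by the labels. A replicate is the mean of an odd-numbered array and the next, which carried the dyes the other way round, so that the dye effect cancels. That gave 6 replicates in eye, 6 in brain and 4 in heart. Heart array 7 lacked 61.6% of its values, and none of the 3 probes had a value in heart replicate 4. The ratios give no level of either gene in an organ, so organs are compared only by their sighted-over-control ratio. In whole-organ RNA, fewer myelinating cells, less RNA per cell and a larger share of RNA from other cells cannot be told apart.

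Of the members, Cldn11 has a promoter in the RefSeq table used here, of assembly GRCm38.p6. It is shown for the identity of the claudin gene, whose ratio passed in eye, and no value of these arrays bears on promoter use. The 250 bases before its start lie on the plus strand at chr3:31149670-31149919. Capitals mark matches to the CCAAT box, here read on the minus strand as ATTGG.
Cldn11 promoter: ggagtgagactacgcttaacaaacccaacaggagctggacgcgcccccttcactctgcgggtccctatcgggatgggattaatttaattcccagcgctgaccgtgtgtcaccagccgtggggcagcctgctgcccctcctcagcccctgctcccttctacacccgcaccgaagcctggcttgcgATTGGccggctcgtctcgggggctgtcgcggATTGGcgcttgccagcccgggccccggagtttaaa
CCAAT was searched on both strands and occurred 2 times in this window, and 33.8% of 32851 promoter windows of the same length hold it. The other motifs, searched the same way, had 0 matches in it. The GC box GGGCGG occurs in 32.7% of the windows and the TATA box TATAAA in 12.4%. Of the core letters bound by SOX factors, ACAAAG occurs in 16.5% of the windows and the shorter form ACAAT in 27.7%. A match or its lack is a description of letters only.

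In eye, both genes were lower in sighted RNA on average. Mbp, as the mean of its probes, had a log2 ratio of -0.35 ± 0.14 (SD, n = 6) and Cldn11 had -0.24 ± 0.16 (SD, n = 6). These are 1.27-fold and 1.18-fold lower. All 6 replicates lay below 0 for each gene. Both passed the limma test, but of 21 alternative settings Mbp missed the threshold in 4 and Cldn11 in 9. The only Mbp probe tested alone, 16362, did not pass (limma adjusted p 0.149). In brain both ratios lay near 0, and in heart neither passed the test. The eye calls have a wide background, since limma called 26.8% of all genes in eye at an adjusted p under 0.05. As lower it called 11.0% of all genes. In these and later counts of all genes, each probe without a symbol stands as a gene of its own.

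The eye value of Mbp had the lower adjusted p of the pair. Its replicates ran from -0.51 to -0.15 with a median of -0.38. The 95% interval of the mean was -0.50 to -0.19, and the limma adjusted p was 0.00623. Of all genes tested in eye, 8.78% had a lower ratio than Mbp, and the median of all genes was 0.03. Leaving out any replicate kept the call, with means between -0.39 and -0.32. The call was lost with ceiling values, the repeated top values of an array that were otherwise treated as missing, kept (-1.08, limma adjusted p 0.237), with single arrays of a pair kept (-0.38, adjusted p 0.0584), and on arrays with sighted RNA in Cy5 alone as deposited (-0.11, adjusted p 0.473) or centred (-0.38, adjusted p 0.0534). The value rests on both probes in replicates 1 to 4 and on probe 16362 alone in replicates 5 and 6.

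The Mbp probes differed in size. Probe 16362 had replicate values between -0.49 and 0.12 with a median of -0.14. It was below 0 in 5 of 6 replicates and above 0 in replicate 4. Its mean was -0.18 ± 0.21 (SD, n = 6), with a 95% interval of -0.38 to 0.01, and it did not pass (limma adjusted p 0.149), where 27.0% of 19088 probes did. Probe 18452 had -0.75, -0.53, -0.77 and -0.54 in replicates 1 to 4, a mean of -0.65 ± 0.13 (SD, n = 4) or 1.56-fold lower. All 4 values lay below every value of probe 16362. Array 10 gave probe 18452 a value of 16.61, the ceiling of the eye arrays, which was treated as missing, and array 12 gave it none. The ratios hold no signal level, so how weak the signal of this probe was is not known. With 2 replicates missing the probe was not tested by the rule that allowed 1. When 4 replicates sufficed, a setting added after its values were seen, its limma adjusted p was 0.00325. With every array on its own it also passed (-0.61, limma adjusted p 0.0221). It did not pass with single arrays of a pair kept (-0.58, n = 6, limma adjusted p 0.131). Nor did it pass with ceiling values kept (-2.29, adjusted p 0.274) or on Cy5 arrays alone (-0.23, adjusted p 0.454).

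Where both Mbp probes were measured in eye, probe 16362 minus probe 18452 was 0.49 ± 0.30 (SD, n = 4). Of 1914 genes with 2 probes in eye, 86.1% had probes closer to each other, and the median distance was 0.17. In brain the same difference was -0.03 ± 0.34 (SD, n = 6), and 16.5% of 1929 such genes had closer probes. In heart it was -0.64 ± 0.90 (SD, n = 3), against a median distance of 0.26. The size of the Mbp change in eye thus depended on the probe, while the sign of both probe means was the same.

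The Cldn11 value in eye was small and spread evenly, apart from a single replicate. Its replicates ran from -0.57 to -0.14 with a median of -0.18. Replicate 2 had the -0.57, and the other 5 lay between -0.23 and -0.14. The 95% interval of the mean was -0.41 to -0.08, and 14.0% of all genes tested had a lower ratio. The limma adjusted p was 0.0380, close to the threshold of 0.05. That call was lost when replicate 1, 3, 4, 5 or 6 was left out, with means between -0.27 and -0.25 and adjusted p between 0.0603 and 0.0874. Without replicate 2 the mean was -0.18 and the adjusted p 0.0483.

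**Figure D1:**
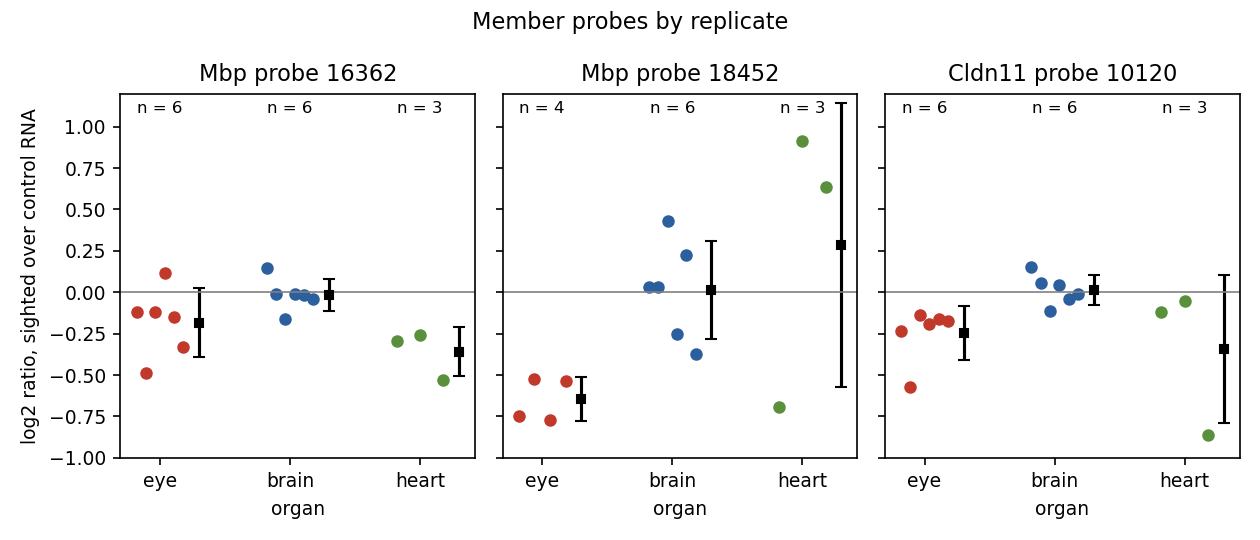
Log2 ratios of sighted over control RNA for the 3 member probes in eye, brain and heart, with a coloured point for each replicate and a black square with bars for the mean and SD. In eye, probe 18452 lies between -0.77 and -0.53 and probe 10120 between -0.57 and -0.14, while the brain means of all 3 probes lie between -0.02 and 0.01 and the heart values spread widely.

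In brain, the organ with the most myelin of the 3, neither gene differed between sighted and control RNA by more than the replicates spread. Cldn11 had replicate values between -0.11 and 0.15 with a median of 0.01. Its mean was 0.01 ± 0.09 (SD, n = 6), and 3 of 6 replicates lay below 0. Mbp as a gene had -0.00 ± 0.14 (SD, n = 6), with replicates between -0.21 and 0.13. The 95% intervals of the means were -0.15 to 0.15 for Mbp and -0.12 to 0.14 for Cldn11, so a difference of the size seen for Mbp in eye lies outside both. The limma adjusted p was 0.999 for Mbp and 0.985 for Cldn11, where 1 of 16112 genes, or 0.00621%, was called.

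The brain values of the Mbp probes differed in spread more than in mean. Probe 16362 ran from -0.16 to 0.15 with a mean of -0.02 ± 0.10 (SD, n = 6). Probe 18452 ran from -0.37 to 0.43 with a mean of 0.01 ± 0.30 (SD, n = 6). Its values were above 0 in replicates 1, 2, 3 and 5 and below 0 in replicates 4 and 6.

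In heart, where no oligodendrocytes are found and myelin is that of small nerves, the 3 replicates with values gave no call. Probe 16362 had -0.29, -0.26 and -0.53, all below 0, with a mean of -0.36 ± 0.15 (SD, n = 3) and a limma adjusted p of 0.561. Probe 18452 had -0.69, 0.91 and 0.64, on both sides of 0. Cldn11 had -0.12, -0.06 and -0.86, so that replicate 3 set most of its mean of -0.35 ± 0.45 (SD, n = 3). The Mbp gene mean was -0.04 ± 0.42 (SD, n = 3), with a limma adjusted p of 0.954. Its 95% interval of -0.60 to 0.53 holds the eye value, so a change of that size was not detectable here. Limma called 0 of 12755 genes in heart, with 1042 at an unadjusted p under 0.05. On array 8, whose partner array 7 had no value, the deposited value of probe 16362 was 6.135, and it entered no replicate.

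The ratio of Mbp was lowest in eye, followed by heart and brain. Its eye value minus its brain value was -0.35, with a 95% interval of -0.55 to -0.15. This organ difference passed, with an adjusted p of 0.0162 from the moderated limma variances of each organ, and 18.4% of 15499 genes passed in the same test. Leaving out any replicate of either organ kept it, between -0.39 and -0.31. It was lost with a spread shared by the organs (limma adjusted p 0.0963), with same-numbered replicates subtracted as a block (adjusted p 0.0587), on Cy5 arrays (adjusted p 0.0913) and on Cy3 arrays (adjusted p 0.210). It did not pass for probe 16362 alone, at -0.17 with an adjusted p of 0.302, where 18.3% of 18516 probes passed. By the test with each organ's own limma variance, eye minus heart was -0.31 for Mbp (adjusted p 0.483, 4.64% of genes called). Brain minus heart was 0.04 by that test (adjusted p 0.964, 0 of 12688 genes called). Heart thus could not be told apart from either neighbour in that order. The eye pool came from other control mice than the brain and heart pools. For both genes, a difference from eye therefore cannot be told apart from a difference between pools.

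The mean ratio of Cldn11 was lowest in heart, followed by eye and brain, but its place in heart rests on replicate 3. Without that replicate eye minus heart was -0.16 (adjusted p 0.738 from the limma variances of each organ), which puts eye lowest. By the same test, the eye value of Cldn11 minus its brain value was -0.26. Its 95% interval was -0.45 to -0.06, and its adjusted p of 0.0631 misses the threshold. Eye minus heart was 0.10 (adjusted p 0.840) and brain minus heart was 0.36 (adjusted p 0.633), again by that test. With arrays centred on their median the eye minus brain difference was -0.29 and passed it (adjusted p 0.0134).

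The single arrays differed by dye orientation. In eye, Cldn11 was -0.01 on average over the 6 arrays with sighted RNA in Cy5, between -0.20 and 0.31, with 3 of 6 below 0. Over the 6 arrays with sighted RNA in Cy3 it was -0.48, between -1.19 and -0.15, with 6 of 6 below 0. The eye arrays were not centred, with medians of Cy5 over Cy3 between -0.06 and 0.54. After centring each array on its median, Cldn11 had -0.29 in Cy5 arrays, with 5 of 6 below 0, and -0.27 in Cy3 arrays, with 6 of 6 below 0.

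Mbp followed the same course in eye. Probe 16362 had 0.02 in Cy5 arrays and -0.39 in Cy3 arrays as deposited, and -0.26 and -0.18 after centring. Probe 18452 had -0.23 over 6 Cy5 arrays and -0.98 over 4 Cy3 arrays as deposited, and -0.51 and -0.72 after centring. Of its Cy5 arrays, 5 lay below 0 and array 11 was at 1.00.

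In brain, by contrast, the dye orientations of Cldn11 pulled apart and centring did not join them. It had -0.21 in Cy5 arrays, with 5 of 6 below 0, and 0.24 in Cy3 arrays, with 0 of 6 below 0. After centring these were -0.27 and 0.30. The dye term of probe 10120, the part of its log2 ratio that follows Cy5 over Cy3 whichever RNA carries it, was -0.23 in brain (limma adjusted p 0.00499), where the median probe had 0.04. In eye the term was 0.24 beside a median of 0.25, and in heart -0.75 beside 0.07. Probe 18452 had a dye term of 0.39 in brain (limma adjusted p 0.0178). Brain arrays of a single orientation would thus have given Cldn11 a mean below or above 0, and the paired mean was 0.01. Neither orientation alone passed (limma adjusted p 0.152 on Cy5 and 0.0908 on Cy3 arrays).

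**Figure D2:**
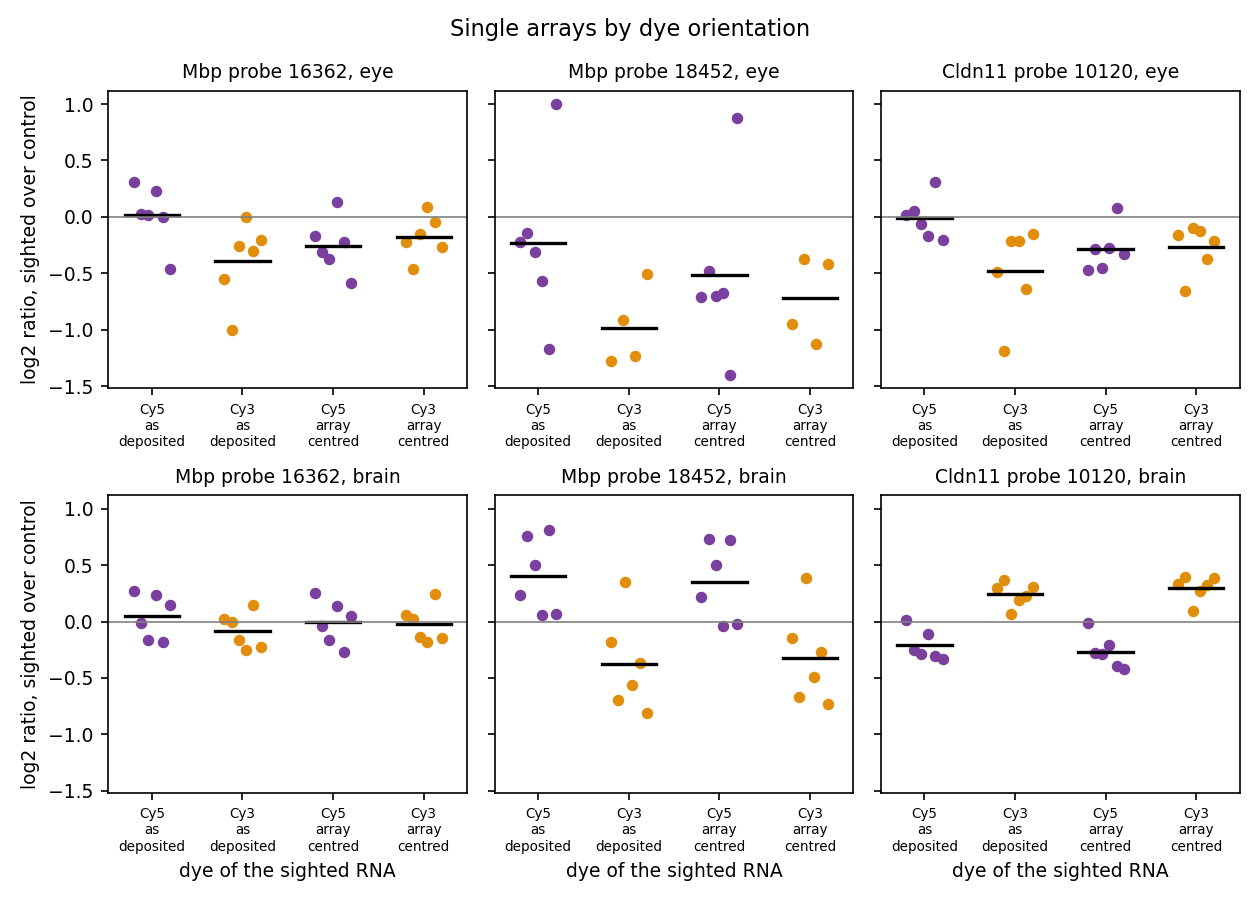
Log2 ratios of sighted over control RNA on single arrays for the 3 member probes, in eye (top) and brain (bottom), split by the dye of the sighted RNA, as deposited and after centring each array on its median; points are arrays and black lines are means. The eye means of probe 10120 are -0.01 (Cy5) and -0.48 (Cy3) as deposited and -0.29 and -0.27 after centring, while its brain means lie on opposite sides of 0 in both, at -0.27 and 0.30 after centring.

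The genes of the myelin list did not move as a block in eye. Of 39 genes listed for the myelin sheath, 23 were on the array, and all 23 were tested. Limma called 4 higher and 6 lower, and 13 did not pass. The 23 include Mbp and Cldn11, which count among the genes called lower and enter the list median. With arrays centred on their median, Nkain1 at -0.22 (limma adjusted p 0.0279) and Qdpr at -0.18 (limma adjusted p 0.0467) also passed as lower. The list median was -0.10, beside 0.03 over all genes, and 15.9% of all genes were called higher and 11.0% lower. Mog and Opalin, other defining genes of central myelin, were not analysed here.

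The genes called lower with Mbp and Cldn11 were Bcas1, Pllp, Tppp and Trf. Bcas1, which marks oligodendrocytes that have begun to myelinate, had -1.04 ± 0.22 (SD, n = 6). Pllp, which encodes the membrane protein plasmolipin, had -0.65 ± 0.14 (SD, n = 6). Bcas1 and Pllp were lower in 6 of 6 replicates and kept their calls when any replicate was left out, and both also occur in epithelia. Tppp, a tubulin-binding protein of oligodendrocytes, had -0.31 ± 0.18, and Trf, transferrin, had -0.28 ± 0.15 (SD, n = 6 each). Tppp lost its call without replicate 3, 4 or 5 (adjusted p between 0.0517 and 0.0597), and Trf without replicate 1, 4 or 5 (adjusted p between 0.0516 and 0.0693).

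The genes called higher were Plekhb1, Ndrg1, Sirt2 and Septin4. Plekhb1, a membrane protein of photoreceptors as well as of myelinating cells, had 1.00 ± 0.06 (SD, n = 6). Ndrg1, a gene of myelinating cells and of many epithelia, had 0.93 ± 0.19 (SD, n = 6). Sirt2, a tubulin deacetylase of oligodendrocytes, had 0.34 ± 0.21, and Septin4, a filament protein that scaffolds myelin, had 0.32 ± 0.22 (SD, n = 6 each). Sirt2 missed the threshold in 10 of 20 alternative settings. It had 0.35 with every array on its own (adjusted p 0.163) and 1.00 with ceiling values kept (adjusted p 0.264). The setting without replicate 3 was another of these (adjusted p 0.0517). Septin4 missed the threshold without replicate 1, 3 or 6 (adjusted p between 0.0503 and 0.0773).

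Among the myelin genes that did not pass, several encode components of the sheath. Mag, the myelin-associated glycoprotein of the innermost wrap, had -0.02 ± 0.12 (SD, n = 6). Cnp, the cyclic nucleotide phosphodiesterase that keeps cytoplasmic channels open in myelin, had 0.08 ± 0.03 (SD, n = 6), with 0 of 6 replicates below 0. Mal, a raft protein of myelin, had 0.08 ± 0.20, and Hapln2, a linker protein at the nodes, had 0.03 ± 0.23 (SD, n = 6 each). Mobp, a basic protein of compact myelin like Mbp, had -0.45 ± 0.83 (SD, n = 6) and lay below 0 in 5 of 6 replicates. Replicate 3 lay lowest, and without it the mean was -0.14.

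The remaining genes without a call lay between -0.19 for Nkain1 and 0.33 for Anln. Gjb1, the gap junction protein connexin-32, had 0.17 ± 0.14, and passed without replicate 2 at 0.22 (adjusted p 0.0309). Tspan2 had 0.10 ± 0.39 and Cd9 had -0.10 ± 0.36, both tetraspanins of the sheath (SD, n = 6 each). Jam3, a junction protein, had -0.11 ± 0.22, Efhd1 -0.12 ± 0.14, and Qdpr, a pterin reductase, -0.15 ± 0.16 (SD, n = 6 each).

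In brain, limma called 0 of the 23 myelin genes. Their ratios lay between -0.15 for Mobp and 0.19 for Trf, with a median of -0.01 beside -0.00 over all genes. Bcas1 had -0.01 ± 0.26, Pllp 0.14 ± 0.13, Plekhb1 0.01 ± 0.20 and Ndrg1 -0.05 ± 0.05 there (SD, n = 6 each). In heart, 19 of the 23 were tested and 0 were called, with ratios between -0.48 for Tppp and 0.58 for Plekhb1.

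**Figure D3:**
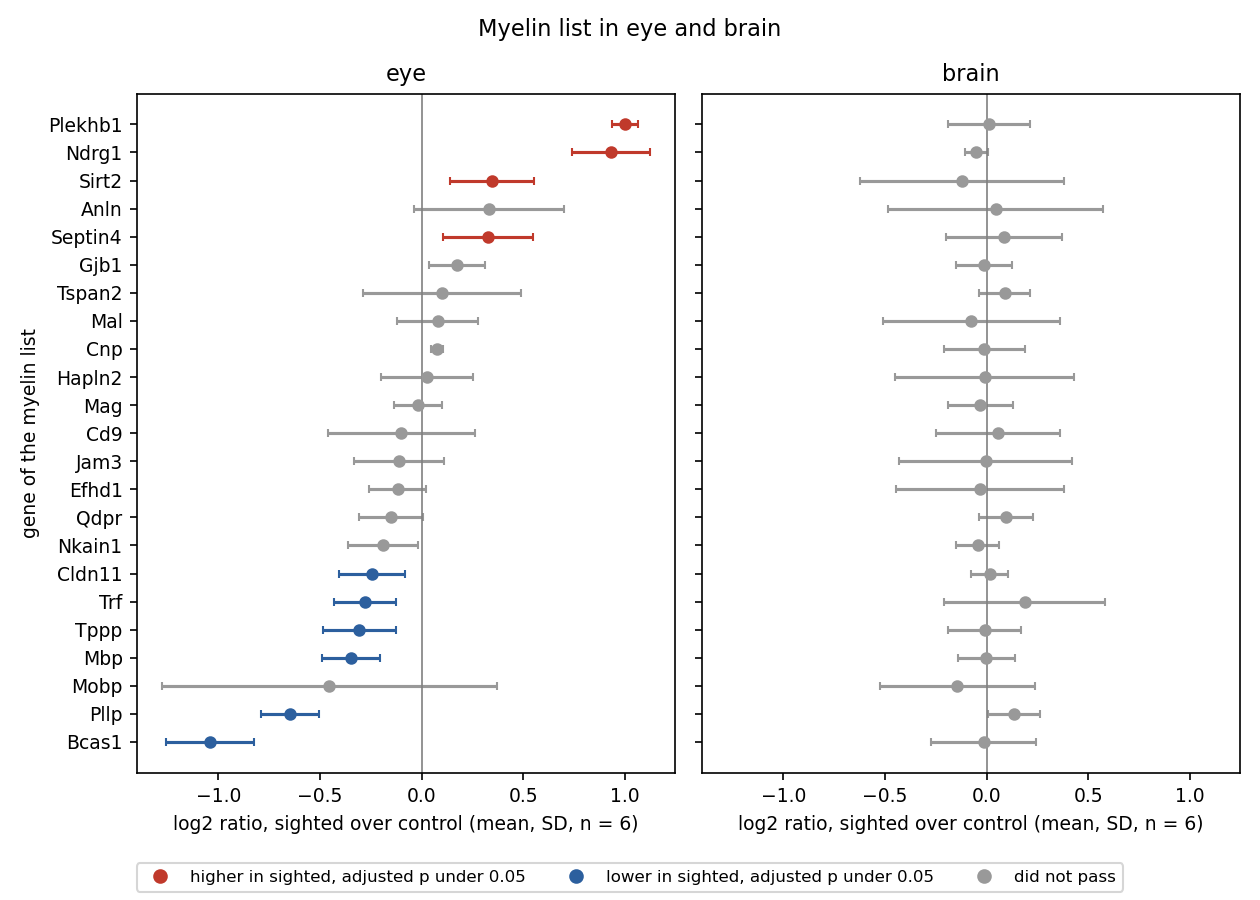
Mean log2 ratios of sighted over control RNA, with SD over 6 replicates, for the 23 measured genes of the myelin list in eye (left) and brain (right), ordered by their value in eye; red and blue mark genes called higher and lower in sighted RNA by limma, grey those that did not pass. The eye values run from -1.04 for Bcas1 to 1.00 for Plekhb1 with 6 genes lower and 4 higher, while all 23 brain means lie between -0.15 and 0.19 with 0 called.

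Genes that make myelin lipid were lower or not called in eye. Of 12 tested, 7 were lower and 0 higher, with a median of -0.31, where 11.0% of all genes were called lower. Elovl1, which elongates saturated fatty acids, had -0.58 ± 0.14, and Sc5d, a late enzyme of cholesterol synthesis, had -0.46 ± 0.14 (SD, n = 6 each). Scd2, a stearoyl-CoA desaturase, had -0.47 ± 0.18, and Hmgcs1, at the head of the cholesterol pathway, had -0.31 ± 0.09 (SD, n = 6 each). Scd2 lost its call in 7 of 20 alternative settings, among them unpaired arrays (-0.33, limma adjusted p 0.0819), ceiling values kept (-0.94, adjusted p 0.140) and single arrays of a pair kept (-0.22, adjusted p 0.322). All cells use these enzymes, and the list is not specific to myelinating cells. The replicate medians of the list lay between -0.36 and -0.20.

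Genes listed for the oligodendrocyte lineage were called in both directions in eye. Of 13 tested, 3 were higher and 3 lower, with a median of 0.05, beside 15.9% of all genes called higher and 11.0% lower. Hes5, a Notch target gene, had 1.19 ± 0.31, Yy1 0.44 ± 0.14 and Zfp536 0.43 ± 0.21 (SD, n = 6 each). Tcf7l2, a transcription factor of newly formed oligodendrocytes, had -0.36 ± 0.11 (SD, n = 6). The lineage factors Olig1 and Olig2, named after their values were seen, did not pass, with Olig1 at -0.13 ± 0.14 and Olig2 at 0.13 ± 1.11 (SD, n = 6 each). Cspg4, Pdgfra and Enpp6, named in the same way, did not pass either. They had 0.03 ± 0.44, 0.08 ± 0.50 and 0.09 ± 0.34 (SD, n = 6 each). Which cells the signal of the called genes came from was not tested.

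Genes of the optic nerve axons were called at about the share of all genes. Of 9 tested genes of ganglion cells and their axons, 1 was higher and 1 lower, with a median of 0.03. Over all genes in eye, 15.9% were called higher and 11.0% lower. Map1b, a microtubule protein of axons, had 0.96 ± 0.28, and Rbpms, an RNA-binding protein that marks ganglion cells, had -0.48 ± 0.25 (SD, n = 6 each). Map1b lost its call with ceiling values kept (0.18, limma adjusted p 0.871) and on centred Cy5 arrays (0.38, adjusted p 0.269). The neurofilament genes Nefm and Nefh, named after their values were seen, had 0.11 ± 0.16 and 0.10 ± 0.40 (SD, n = 6 each) and did not pass. Of 10 genes of the contact between axon and glia, Nfasc had 0.28 ± 0.19, while Cntn1 had -0.41 ± 0.18 and L1cam -0.25 ± 0.12 (SD, n = 6 each). All 3 passed, and the list median was -0.08. Nfasc lost its call when replicate 1, 3, 4, 5 or 6 was left out (adjusted p between 0.0575 and 0.0870), and L1cam without replicate 1, 4 or 5 (adjusted p between 0.0541 and 0.0623).

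Cldn11 belongs to a second group, the claudins and their partners in tight junctions. Of 14 tested in eye, 8 were lower and 0 higher, Cldn11 included, with a median of -0.30, where 11.0% of all genes were called lower. Tjp3, a scaffold protein of tight junctions, had -0.83 ± 0.17, and Marveld2, tricellulin, had -0.58 ± 0.19 (SD, n = 6 each). The epithelial claudins Cldn7 and Cldn3 had -1.09 ± 0.37 and -0.65 ± 0.12 (SD, n = 6 each). Cldn11 was the smallest of the 8 changes. Limma called 0 genes of this list in brain and heart. It called 0 of the other lists in brain, and 0 of those in heart, where the Schwann cell list had no tested gene.

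Genes of other tissues around the eyeball moved in eye alongside Mbp and Cldn11, where 11.0% of all genes were called lower. Of 12 skeletal muscle genes, 12 were lower, with a median of -0.89 and replicate medians between -1.14 and -0.48. Actn3 and Ckm, of fast muscle, had -1.18 ± 0.27 and -1.13 ± 0.28 (SD, n = 6 each). Of 11 genes of corneal epithelium, 10 were lower, with a median of -1.03 and replicate medians between -1.53 and -0.75. Krt15, Tkt and Krt14 had -0.86 ± 0.12, -1.01 ± 0.26 and -1.06 ± 0.33 (SD, n = 6 each). Of 14 immune genes, 10 were lower, with a median of -0.45 and replicate medians between -0.72 and -0.28. H2-K1, Lgals3 and Ctss had -1.01 ± 0.18, -0.85 ± 0.13 and -0.89 ± 0.15 (SD, n = 6 each). The part of these tissues in the ratios of Mbp and Cldn11 was not tested.

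The remaining lists ran in both directions in eye, beside 15.9% of all genes called higher and 11.0% lower. Of 5 fat genes, 3 were lower with a list median of -0.39, and Fabp4 had -0.70 ± 0.22 (SD, n = 6). All 3 blood genes were lower, with a median of -1.22 and replicate medians between -1.85 and -0.70. Of 13 astroglia genes, 4 were lower with a median of -0.23, and Apoe, Gfap and Gja1 had -0.51 ± 0.19, -0.45 ± 0.20 and -0.50 ± 0.25 (SD, n = 6 each). Of 10 genes of the meninges, which sheathe the optic nerve, Foxc1 was lower at -0.68 ± 0.08 (SD, n = 6), and Igf2 and Slc22a6 were higher at 0.39 ± 0.16 (SD, n = 6) and 0.64 ± 0.28 (SD, n = 5). Slc22a6 lost its call when arrays were not paired (0.43, limma adjusted p 0.230), with single arrays of a pair kept (0.26, adjusted p 0.635), and on arrays of either dye alone. Of 11 lens genes, 10 were higher with a median of 0.56. Of 7 rod genes tested, 7 were higher with a median of 4.57, a list not drawn in the figure. What the larger share of rod RNA did to the ratios of Mbp and Cldn11 was not tested. Of 11 listed Schwann cell genes, Pmp22 was measured, at -0.15 ± 0.26 (SD, n = 6), and did not pass.

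**Figure D4:**
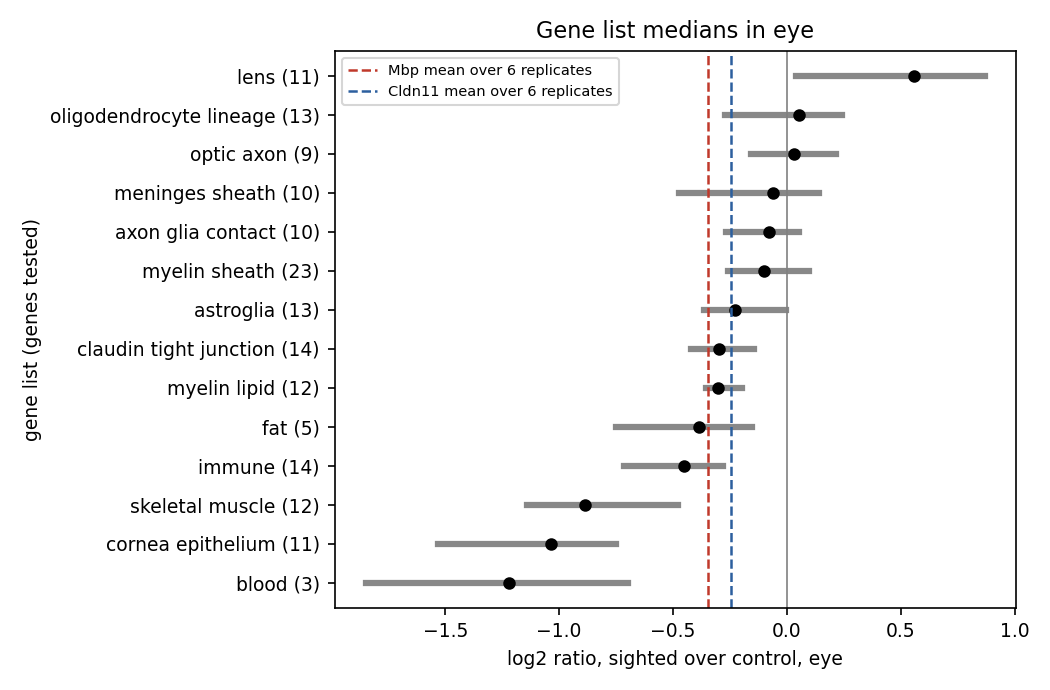
Median log2 ratio of sighted over control RNA in eye for 14 gene lists, with the number of genes tested in brackets; points are medians over the gene means, and grey bars run from the lowest to the highest replicate median. Dashed lines mark the means of Mbp at -0.35 and Cldn11 at -0.24, which lie below the myelin median of -0.10 and above the muscle, cornea and blood medians.

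Likeness was measured as the root mean square distance between log2 ratios over the 15 replicates in which the members had values, 6 each in eye and brain and 3 in heart. Mbp lay closest to Endod1, at 0.156, among 6632 other named genes with a median distance of 0.414. Lancl1, Fam83f, Hivep2 and Cdc20 followed, at 0.171, 0.173, 0.179 and 0.181. Cldn11 lay closest to Zfp46, at 0.107, followed by Fbxo34, Id4, Plbd2 and 1700018B08Rik, at 0.110, 0.122, 0.129 and 0.132. Its median distance was 0.406. Mbp and Cldn11 lay 0.310 apart, and Cldn11 ranked 954 by distance to Mbp. All these genes share arrays and control pools, and genes with small ratios in every organ are close to each other by this measure.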

How the data were processed

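The authors deposited a log2 ratio of Cy5 over Cy3 per probe and array, 32 arrays in all, made from total RNA that was reverse transcribed and labelled indirectly, per the labels' protocols. Details of the scanner, any background correction and any normalization were not given in the sources used here, so centring and scaling remain unknown. Both channels of brain array 3 are labelled Cy5, taken here as Cy5 on the sighted side, and the label of brain array 5 names no organ besides its title. Of the values, 5.88% were missing as deposited, and 4170 repeated top values above 15 were set missing, a choice taken from earlier results of these data. The members, gene lists and tests were chosen with earlier results of these data known.

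Probe symbols came from the platform annotation (12771 probes with 1 symbol, 0 with several, 8023 with none, which stayed in the tests). The sign was turned on arrays whose sighted RNA carried Cy3, and consecutive arrays of opposite dye were averaged, a reading of the array numbers. Both arrays were needed, and a feature could miss 1 replicate. Probes of a gene were averaged after pairing. In each organ, limma 3.58.1 (R 4.3.3) set the replicate mean against 0 in a two-sided test, with Benjamini-Hochberg adjustment over all features and a threshold of 0.05. Organ differences used each organ's moderated variance with Satterthwaite degrees of freedom. Brain and heart share control mice, which this does not model. The eye pool came from other mice, so differences from eye also hold any difference between pools. The fits were tested on simulated data. The number of arrays limits the precision.

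The text names both members, every measured myelin gene and, from the other 15 lists, up to 4 genes past the threshold by smallest p. It also names the 5 genes nearest each member over 15 replicates, where the rule asked for every replicate. Same-numbered replicates of different organs correlated between -0.05 and 0.05 over genes, so they were not taken as pairs. Within an organ, the arrays averaged as a pair correlated on average at 0.10 in eye, 0.0056 in brain and -0.015 in heart. Arrays of opposite dye from different pairs had -0.020, -0.0012 and 0.0047. Each probe's mean per dye orientation was removed first. In brain and heart the pairing thus rests on the array numbers and the dyes, and the correlations do not bear it out. The highest correlation between any 2 arrays was 0.527, so no array was a copy of another. Alternatives changed the pairing, centring, scaling, missing values, probe summary, moderation, dye orientation, filter and replicates.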

Additional observations from a re-analysis of the deposited data

Results flagged for a closer look

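Among 58 groups of replicates of the 23 myelin genes, 5 held a replicate far from the others, and chance marks about 1 group in 20. Cldn11 in eye had -0.57 in replicate 2, with the others between -0.23 and -0.14. Cd9 in brain had a replicate at 0.64, with the others between -0.25 and 0.07. Nkain1 in brain had a replicate at 0.15, with the others between -0.13 and -0.04. Sirt2 in brain had a replicate at -1.07, with the others between -0.14 and 0.35. Jam3 in heart had a replicate at -0.68, with the others between -0.16 and -0.11. The ratio of Mbp differed between organs by the test of the difference itself, with eye minus brain at -0.35 (adjusted p 0.0162 from limma variances). The eye and brain pools came from different control mice, so organ and pool cannot be told apart.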

How the results depend on the processing

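Mbp and Cldn11 kept their eye direction in every setting tried, except that probe 16362 turned to 0.021 on Cy5 arrays alone. The Cldn11 call was lost with every array on its own (adjusted p 0.0603 by probe, 0.0604 by gene, at -0.24), on Cy5 arrays (-0.0093), on centred Cy3 arrays (-0.27) and in replicates 1 to 4 (-0.28), the last 2 added after seeing the data. Leaving out a replicate gave -0.27 to -0.18. The Mbp call was lost with ceiling values kept (-1.08), single arrays of a pair kept (-0.38), on Cy5 arrays (-0.11) and on centred Cy5 arrays (-0.38). Leaving out a replicate gave -0.39 to -0.32. Probe 18452 in eye moved to -2.29 with ceiling values kept, -0.23 on Cy5 arrays and -0.51 on centred Cy5 arrays. The causes were not tested.

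Brain and heart values near 0 changed sign by dye. On Cy5 arrays probe 16362 had 0.049 in brain, Cldn11 -0.21 (centred -0.27), the Mbp mean 0.23 (centred 0.17) and in heart 0.37. On Cy3 arrays probe 18452 had -0.38 in brain (centred -0.32) and -0.62 in heart, and Cldn11 0.54 in heart. The Mbp mean in brain was 0.00071 with centred and 0.021 with scaled arrays. Leaving out a replicate gave -0.048 to 0.013 for probe 16362, -0.069 to 0.091 for probe 18452, -0.014 to 0.039 for Cldn11 and -0.028 to 0.040 for Mbp in brain, and -0.029 to 0.77 for probe 18452 and -0.22 to 0.19 for Mbp in heart.

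Eye minus brain for Mbp missed the threshold on Cy5 (-0.33) or Cy3 arrays (-0.33), with a shared spread (-0.35, adjusted p 0.0963) and for probe 16362 (-0.17). For Cldn11 it passed with centred arrays (-0.29) and on Cy3 arrays (-0.72), and was 0.20 on Cy5 arrays. Eye minus heart was 0.71 for Mbp and -1.02 for Cldn11 on Cy3 arrays, and 0.18 for probe 16362. Brain minus heart was -0.14 for Mbp on Cy5 arrays, -0.27 for probe 18452, and -0.30 for Cldn11 on Cy3 arrays. Leaving out a replicate gave -0.19 to 0.22 for Mbp brain minus heart and -0.16 to 0.25 for Cldn11 eye minus heart. With same-numbered replicates subtracted, a replicate block that nothing in the labels or data bears out, eye minus brain was -0.35 for Mbp (adjusted p 0.0587) and -0.26 for Cldn11 (0.140).

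Counts of calls moved as follows. Cy5 arrays called 7789 probes and 6580 genes in eye. In brain, probes and genes called were 9 and 6 with every array on its own, with or without a random block for pairs, 3 and 2 once arrays were scaled, 0 and 0 with ceiling values kept, 3 and 2 with every replicate measured, and 7 and 2 without the features of most spread. They were 1080 and 736 on Cy5 arrays, 1791 and 1327 on Cy3 arrays, 687 and 464 on centred Cy5 arrays and 1050 and 707 on centred Cy3 arrays. A shared spread called 1564 genes for eye minus brain, 2844 for eye minus heart and 357 for brain minus heart. Eye minus heart called 49 genes on Cy5 arrays, 365 on Cy3 arrays and 206 with the replicate block. Leaving out a replicate gave 0 to 1 genes and 0 to 1 probes in brain and 45 to 596 genes for eye minus heart.

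On arrays of a single dye or in replicates 1 to 4, further named eye genes missed the threshold, among them Tppp, Septin4, Trf, Cntn1, L1cam, Nfasc, Tcf7l2, Zfp536, Yy1, Sc5d, Hmgcs1, Marveld2, Apoe, Gfap and Igf2. These settings use fewer arrays, and some estimates also moved toward 0. Gfap went from -0.45 to -0.087 on Cy5 arrays and Septin4 from 0.32 to 0.029 on Cy3 arrays. Tppp did not shrink on Cy3 arrays, at -0.36 against -0.31. Other named genes changed sign in eye as follows. On Cy5 arrays Mag had 0.23, Cd9 0.21, Nkain1 0.13, Jam3 0.47, Efhd1 0.13, Trf 0.0021 and Tcf7l2 0.011. On Cy3 arrays Cnp had -0.24, Mal -0.18, Gjb1 -0.026, Tspan2 -0.17, Hapln2 -0.11, Nfasc -0.036 and Slc22a6 -0.055. Hapln2 had -0.0075 centred, -0.0064 scaled and -0.11 on centred Cy5 arrays. Jam3 had 0.18 with every array on its own, with or without the block, 0.45 with single arrays kept, 0.19 on centred Cy5 and 0.11 on centred Cy3 arrays. Cnp had -0.028 on centred Cy3 arrays, Mal -0.0023 in replicates 1 to 4 and Tspan2 -0.63 with ceiling values kept. Leaving out a replicate gave -0.041 to 0.025 for Mag, -0.020 to 0.21 for Tspan2 and -0.017 to 0.091 for Hapln2.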
